A study of Mus musculus with 27 samples.

Results

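Genes of the contractile apparatus of the early heart were examined in whole mouse embryos at embryonic day 8.5 (E8.5). They are 10 genes chosen by name: the myosin heavy chains Myh6 and Myh7, the myosin light chains Myl2, Myl3, Myl4 and Myl7, the troponin subunits Tnnt2 and Tnni1, the cardiac actin Actc1 and the calcium release channel Ryr2. All 10 were found among the 24065 genes of the count table, and all 10 passed the filter on low counts that left 15114 genes for testing. The samples were 3 WT and 3 Dnmt3b-/- littermates on the C57BL/6J background, each sequenced as 1 library from 1 embryo. The Dnmt3b-/- embryos carry no catalytically active copy of the de novo DNA methyltransferase DNMT3B, because the Dnmt3b-2lox allele had been deleted by crosses with a Cre deleter strain and heterozygotes were then mated, so the loss affects every cell of the embryo and not the heart alone. The WT embryos received no treatment and carry both intact copies, and the sex of the embryos is not given in the labels. The question addressed is whether the transcripts of these genes differ in level when DNMT3B is absent.

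The heart is the first organ of the mouse embryo to work, and at about this stage the linear heart tube begins to beat and to loop. Force is made by the sarcomere, in which myosin heavy chains with their light chains pull on actin filaments. Calcium opens the filament to myosin through the troponin complex and tropomyosin, and it is released from the sarcoplasmic reticulum through the ryanodine receptor. The early heart tube uses several isoforms of these proteins side by side that later become restricted to the atria, the ventricles or skeletal muscle.

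The raw counts on genes summed to between 41489332 and 58470286 per library, and the lowest raw count of any of the 10 genes in any library was 277, far above the 3 counts (2.37 to 3.49 once scaled) under which a gene would be read as not detected. The values below are normalized counts, which are raw counts scaled by the TMM method of edgeR to a common library size, unless they are named as FPKM (fragments scaled to exon length and library size). Dnmt3b itself was counted at 7263, 13956 and 6280 normalized counts in WT embryos 1, 2 and 3 and at 4063, 4541 and 4740 in Dnmt3b-/- embryos 1, 2 and 3. All Dnmt3b-/- embryos were below all WT embryos (log2 fold change -1.04, SE 0.27, adjusted p = 0.0169), and the adjusted p lay between 0.00260 and 0.0613 when an embryo was left out. WT embryo 2 stood apart from the other WT embryos. It had the highest Dnmt3b count, the lowest level of primitive erythroid markers, with 15.1 FPKM of the embryonic globin Hbb-y against 388 and 524 in the other WT embryos, and the highest level of yolk sac endoderm markers, with 131 FPKM of Apob against 40.5 and 12.1. It was also the lowest of the WT embryos for 10 of the 10 contractile genes. The part of these other cells in the contractile gene levels was not tested, and results of the 10 genes and of the gene lists are given with and without this embryo where they rest on it.

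Without a fold threshold 1 of the 10 genes rose and 2 fell in Dnmt3b-/- embryos at an adjusted p below 0.05. Tnnt2 rose and Myl3 and Myl4 fell. Among all tested genes 17.6% rose and 18.1% fell by the same rule, so these shares lie near the background. With the additional requirement of a fold change above 2, no gene of the 10 was called higher and Myl3 was the 1 gene called lower, against 2.12% higher and 3.78% lower of all tested genes. At an unadjusted p below 0.05, 1 gene was higher and 5 were lower, against 3324 higher and 3591 lower of all 15114 tested genes. DESeq2 called the same number of genes as edgeR with the fold threshold, 0 higher and 1 lower. Of all tested genes it called 351 higher and 588 lower. The median log2 fold change was -0.42 for the 10 genes and -0.03 for all tested genes. The genotypes did not overlap for 1 gene that was higher (Tnnt2) and for 2 genes that were lower (Myl3 and Ryr2), while 25.3% of all tested genes were higher and 26.5% were lower without overlap.

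Leaving out WT embryo 2 changed this picture. It was the lowest WT embryo for 10 of the 10 genes, so without it the WT mean of each gene is higher. The direction of this shift was thus fixed beforehand, and the fit is no independent support for a fall. In the remaining 5 embryos 6 of the 10 genes fell (Myl3, Myl4, Myl7, Tnni1, Actc1 and Ryr2) and Tnnt2 alone rose, at an adjusted p below 0.05, against 17.6% of all tested genes that fell and 17.0% that rose in that fit. The median log2 fold change of the 10 genes was then -0.62. A correction for exonic GC content and length moved the result the other way. With it 1 of the 10 genes rose (Tnnt2) and none fell, against 11.0% of all tested genes that rose and 15.6% that fell. At an unadjusted p below 0.05, 2 of the 10 were lower with it, against 3523 of all 15114 tested genes. DESeq2 without the correction called 4 of the 10 genes lower at an adjusted p below 0.05, against 3013 of all 15114 tested genes. The exons of the 10 genes hold between 49.6% and 56.6% GC. For a gene that is lower, a smaller number of heart cells and less RNA per heart cell cannot be told apart in whole embryos. The labels give E8.5 for all 6 embryos and no finer stage, and the part of stage in these levels was not tested.

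**Figure D1:**
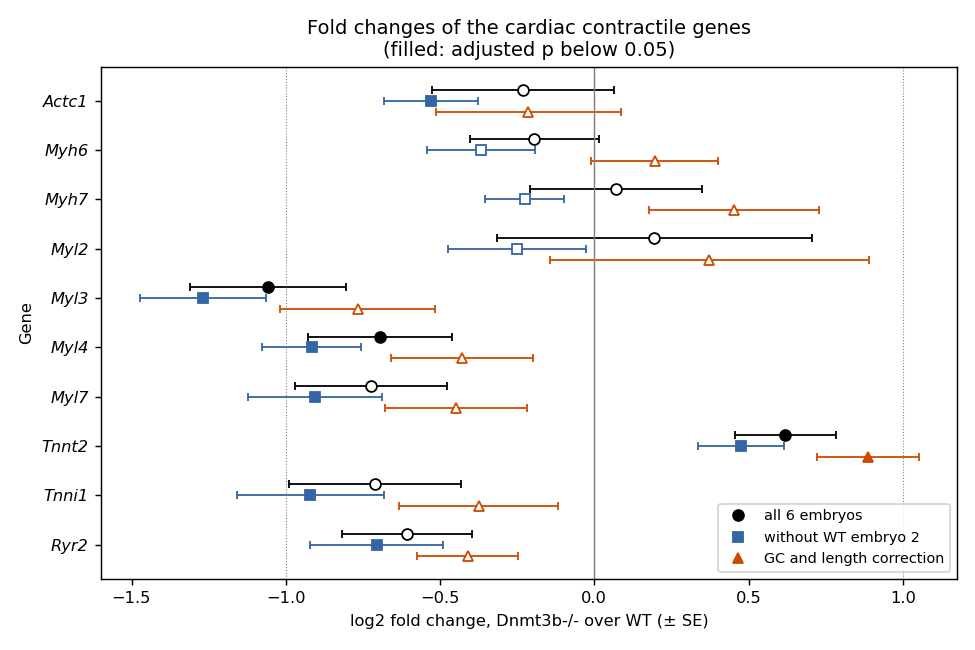
Log2 fold change between Dnmt3b-/- and WT embryos with its SE (horizontal axis) for each of the 10 contractile genes (vertical axis), from all 6 embryos (circles), without WT embryo 2 (squares) and with a correction for GC content and length (triangles). Filled symbols have an adjusted p below 0.05, and dotted lines mark a fold change of 2. Tnnt2 lies to the right of 0 in all 3 fits and is filled in each, while Myl3 lies to the left in all 3 and is open only with the correction.

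The thin filament of the early heart is built largely from cardiac alpha-actin, the product of Actc1. It lies on chromosome 2 between 114047282 and 114052875 on the minus strand of the mm10 (GRCm38) assembly. Actc1 had 14993, 7046 and 17309 normalized counts in WT embryos 1, 2 and 3 and 10685, 13671 and 9202 in Dnmt3b-/- embryos 1, 2 and 3. The Dnmt3b-/- embryos fell within the WT range, whose lower end was set by WT embryo 2. The log2 fold change was -0.23 with an SE of 0.29 and an adjusted p of 0.578, and it was -0.53 with an adjusted p of 0.0267 without WT embryo 2 and 0.02 without WT embryo 3. The actins share long stretches of sequence, and reads shared with Acta1 and Acta2 can blur these counts.

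The RefSeq promoter window of Actc1, 250 bases before to 50 bases after the annotated start site, is shown because it holds a CArG box, the site bound by serum response factor (SRF). The window is chr2:114052826-114053125, minus strand, and the capitals mark the CArG box, 47 bases before the start, and a TATAAA motif after it.
Actc1: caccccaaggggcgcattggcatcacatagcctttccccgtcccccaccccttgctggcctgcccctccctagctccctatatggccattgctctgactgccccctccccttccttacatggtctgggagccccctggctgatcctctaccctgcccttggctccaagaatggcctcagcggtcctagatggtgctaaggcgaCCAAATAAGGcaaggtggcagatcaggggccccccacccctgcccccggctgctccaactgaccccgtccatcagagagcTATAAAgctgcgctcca

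The thick filament motor is formed by the 2 cardiac myosin heavy chains, which lie next to each other on the minus strand of chromosome 14. Myh6 (54941921 to 54968017) encodes the fast alpha chain that dominates in the adult mouse heart, and Myh7 (54970684 to 54994626) encodes the slow beta chain that dominates in the fetal ventricle. Myh6 had 12619, 7469 and 9998 normalized counts in WT embryos and 7832, 11116 and 7354 in Dnmt3b-/- embryos. Myh7 had 10758, 4344 and 8808 in WT embryos and 7293, 9516 and 8310 in Dnmt3b-/- embryos. The genotypes overlapped for both heavy chains, and Dnmt3b-/- embryo 2 was the highest of its genotype for each. The log2 fold change of Myh6 was -0.19 (SE 0.21, adjusted p = 0.502), and it was 0.20 with the correction for GC content and length. That of Myh7 was 0.07 (SE 0.28, adjusted p = 0.866), and it was -0.23 without WT embryo 2 and 0.45 with the correction (adjusted p = 0.263). No direction could therefore be given for either heavy chain. Both coding sequences are similar, so that some reads may have been shared, and Myh7 overlaps the exons of antisense transcripts (Mhrt over 463 bases and Gm31251 over 2520 bases) that the count table does not list. Since the strand setting of the counting is not given in the sources used here, reads of these transcripts cannot be told apart from those of Myh7.

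Both genes that fell, Myl3 and Myl4, encode myosin light chains. Myl3 (chromosome 9, 110763678 to 110769802, plus strand) encodes the essential light chain of ventricular and slow skeletal muscle. It had 748, 505 and 954 normalized counts in WT embryos 1, 2 and 3 and 301, 448 and 313 in Dnmt3b-/- embryos 1, 2 and 3. Every Dnmt3b-/- embryo was below every WT embryo, and WT embryo 2 and Dnmt3b-/- embryo 2 came closest to each other. The mean was 736 ± 225 (SD, n = 3) in WT and 354 ± 81.7 (SD, n = 3) in Dnmt3b-/- embryos, a 2.08-fold decrease (log2 fold change -1.06, SE 0.25, adjusted p = 0.0129). Without WT embryo 2 the log2 fold change was -1.27 (adjusted p = 0.00258). It was -0.77 with the correction for GC content and length (adjusted p = 0.0561) and -0.96 without Dnmt3b-/- embryo 3 (adjusted p = 0.0527), so Myl3 no longer passed the test in these fits.

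Myl4 (chromosome 11, 104546017 to 104587215, plus strand) encodes the atrial and embryonic essential light chain. It had 3436, 2069 and 3815 normalized counts in WT embryos and 1820, 2394 and 1551 in Dnmt3b-/- embryos. Only Dnmt3b-/- embryo 2 reached into the WT range, above WT embryo 2. The mean was 3107 ± 918 (SD, n = 3) in WT and 1921 ± 431 (SD, n = 3) in Dnmt3b-/- embryos (log2 fold change -0.69, SE 0.23, adjusted p = 0.0486). Without WT embryo 2 the log2 fold change was -0.92 (adjusted p = 0.00347), but the adjusted p rose to 0.209 with the correction for GC content and length, to 0.133 and 0.141 without WT embryo 1 or 3, and to 0.124 and 0.158 without Dnmt3b-/- embryo 1 or 3. The decrease of Myl4 passed the test in 6 of 15 alternative fits.

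Myl7 (chromosome 11, 5896637 to 5898782, minus strand) encodes the regulatory light chain of the atria, which is found throughout the early heart tube. It had 7037, 4885 and 8104 normalized counts in WT embryos and 4215, 5196 and 2710 in Dnmt3b-/- embryos. Dnmt3b-/- embryo 2 was slightly above WT embryo 2, and the other Dnmt3b-/- embryos were below all WT embryos. With a log2 fold change of -0.72 (SE 0.25), Myl7 missed the threshold narrowly (adjusted p = 0.0501). It was -0.91 without WT embryo 2 (adjusted p = 0.0129) and -0.95 without Dnmt3b-/- embryo 2 (adjusted p = 0.0405). In the other direction it was -0.45 with the correction for GC content and length (adjusted p = 0.190), -0.49 without Dnmt3b-/- embryo 3 (adjusted p = 0.122) and -0.56 without WT embryo 3 (adjusted p = 0.138).

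Myl2 (chromosome 5, 122092724 to 122113473, plus strand) encodes the regulatory light chain of the ventricles and one of their earliest markers. It had 1445, 342 and 1953 normalized counts in WT embryos and 1367, 1869 and 1053 in Dnmt3b-/- embryos. All Dnmt3b-/- embryos were within the WT range, which spanned 5.71-fold because of the low value in WT embryo 2. Its log2 fold change was 0.19 (SE 0.51, adjusted p = 0.796), and it was -0.25 without WT embryo 2 (SE 0.22, adjusted p = 0.429). Myl2 shares 60 exon bases with Ccdc63 on the opposite strand.

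Promoter windows of Myl3 and Myl7 are shown because Myl3 had the largest decrease and because both hold a CArG box, 85 and 61 bases before the start site. The Myl3 window is chr9:110763428-110763727, plus strand, and the Myl7 window is chr11:5898733-5899032, minus strand. Capitals mark the CArG box and CATTCC, the MCAT element bound by TEAD factors, on either strand.
Myl3: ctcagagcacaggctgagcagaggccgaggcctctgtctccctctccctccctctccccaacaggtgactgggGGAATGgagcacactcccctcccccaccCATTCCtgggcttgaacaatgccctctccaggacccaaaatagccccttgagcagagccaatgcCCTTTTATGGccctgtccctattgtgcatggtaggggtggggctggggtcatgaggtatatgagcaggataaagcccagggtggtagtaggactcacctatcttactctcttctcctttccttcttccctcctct
Myl7: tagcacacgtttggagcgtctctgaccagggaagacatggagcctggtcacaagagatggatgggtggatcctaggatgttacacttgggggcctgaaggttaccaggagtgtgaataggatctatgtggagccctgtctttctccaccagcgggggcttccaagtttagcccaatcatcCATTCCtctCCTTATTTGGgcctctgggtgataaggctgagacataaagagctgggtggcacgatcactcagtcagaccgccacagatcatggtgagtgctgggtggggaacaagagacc

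Of the troponin genes, Tnnt2 was the only one of the 10 contractile genes that rose. It encodes cardiac troponin T, which anchors the troponin complex to tropomyosin and is among the first sarcomere proteins made in heart precursors, and it lies on chromosome 1 between 135836315 and 135852268 on the plus strand. Tnnt2 had 3693, 2909 and 4439 normalized counts in WT embryos 1, 2 and 3 and 5090, 6746 and 5135 in Dnmt3b-/- embryos 1, 2 and 3. Every Dnmt3b-/- embryo was above every WT embryo, and Dnmt3b-/- embryo 2 was the highest. The mean rose from 3680 ± 765 (SD, n = 3) to 5657 ± 943 (SD, n = 3), a 1.54-fold increase (log2 fold change 0.62, SE 0.16, adjusted p = 0.0198). It was 0.48 without WT embryo 2 (adjusted p = 0.0286) and 0.89 with the correction for GC content and length (adjusted p = 0.00649). The adjusted p was 0.0588 without WT embryo 1 and 0.0809 without Dnmt3b-/- embryo 2, and the increase passed the test in 13 of 15 alternative fits.

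Tnni1 (chromosome 1, 135783033 to 135810989, plus strand) encodes slow skeletal troponin I, the inhibitory subunit that the embryonic heart uses before the cardiac form Tnni3 replaces it. It had 1855, 1237 and 2305 normalized counts in WT embryos and 1364, 1226 and 706 in Dnmt3b-/- embryos. Dnmt3b-/- embryo 1 was above WT embryo 2, so the genotypes overlapped. Its log2 fold change was -0.71 (SE 0.28, adjusted p = 0.0796), and it was -0.92 without WT embryo 2 (adjusted p = 0.0181). It was -0.37 with the correction for GC content and length (adjusted p = 0.320), -0.46 without Dnmt3b-/- embryo 3 (adjusted p = 0.201) and -0.49 without WT embryo 3 (adjusted p = 0.224). Both troponin genes lie close together on chromosome 1, and their changes had opposite signs in the 15 alternative fits run.

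The promoter window of Tnnt2 (chr1:135836084-135836383, plus strand) is shown as that of the gene that rose. Capitals mark an AGATAA motif of the kind bound by GATA factors, read on the opposite strand, and CATTCC, 27 bases before the start.
Tnnt2: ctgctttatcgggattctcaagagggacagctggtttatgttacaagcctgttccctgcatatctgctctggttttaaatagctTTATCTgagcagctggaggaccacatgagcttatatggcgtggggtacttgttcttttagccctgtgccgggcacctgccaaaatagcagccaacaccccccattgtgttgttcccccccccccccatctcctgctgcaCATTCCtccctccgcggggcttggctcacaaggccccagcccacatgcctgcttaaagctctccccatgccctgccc

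Calcium release is represented by Ryr2 (chromosome 13, 11553099 to 12106945, minus strand), the ryanodine receptor of the heart. It had 1773, 1310 and 1490 normalized counts in WT embryos and 986, 1303 and 716 in Dnmt3b-/- embryos. All Dnmt3b-/- embryos were below all WT embryos, but Dnmt3b-/- embryo 2 and WT embryo 2 were nearly equal. Its log2 fold change was -0.61 (SE 0.21, adjusted p = 0.0543). It was -0.70 without WT embryo 2 (adjusted p = 0.0339), -0.84 without Dnmt3b-/- embryo 2 (adjusted p = 0.0243) and -0.41 with the correction for GC content and length (adjusted p = 0.102). These 2 were the only ones of 6 fits leaving out an embryo in which Ryr2 passed the edgeR test. Over the 6 fits the log2 fold change came as near to 0 as -0.40, and the adjusted p reached 0.166.

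The same 6 promoter motifs were searched on both strands in all RefSeq windows of the 10 genes, 14 windows in all since some genes have several start sites. A CArG box was found for 3 of the 10 genes (Actc1, Myl3 and Myl7), in 3 of the 14 windows, while 1.63% of all 32851 mouse promoter windows hold one. CATTCC was found for 5 genes (Myh6, Myh7, Myl3, Myl7 and Tnnt2), in 5 of the 14 windows, and is in 14.7% of all windows. AGATAA was found for Myl2 and Tnnt2, in 2 windows (11.2% of all windows), and TATAAA for Actc1, Myh6 and Myl2, in 3 windows (13.6%). The E-box CANNTG, which overlaps many other short motifs, was found for 9 genes, in 13 of the 14 windows, and is in 72.3% of all windows. The MEF2 motif was in none of the 14 windows and is in 3.19% of all windows, which says nothing about binding outside these letters and this window. The windows are mostly poor in CpG, the substrate of DNMT3B: 9 of 14 have 5 CpG or fewer, as have 43.6% of all windows, and the median was 5 CpG against 7 over all windows. The other 5 windows were those of Myl4 (25 CpG), Ryr2 (18) and Actc1 (7), 1 of the windows of Myl2 (7) and 1 of the windows of Tnni1 (6). The Myl4 window (chr11:104550413-104550712) also holds the start of Cdc27 on the opposite strand, at 104550620, so its CpG are not those of Myl4 alone. Methylation at these sites was not analysed here.

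Compared per length, the 10 genes spanned more than 2 orders of magnitude in level. In WT embryos the mean FPKM was highest for Myl7 (236 ± 57.9, SD, n = 3) and Actc1 (187 ± 76.8), followed by Tnnt2 (61.2 ± 12.7) and Myl4 (53.8 ± 15.9). Next came Myh6 (34.4 ± 8.83), Tnni1 (33.6 ± 10.02) and Myh7 (26.3 ± 10.9), then Myl3 (16.9 ± 5.16) and Myl2 (10.1 ± 6.64), and Ryr2 was lowest (1.89 ± 0.289). Only the steps from Actc1 to Tnnt2 and from Myl2 to Ryr2 separated the ranges of neighbouring genes. In Dnmt3b-/- embryos the order began with Actc1 (159.5 ± 32.5), Myl7 (143 ± 44.2) and Tnnt2 (94.1 ± 15.7), followed by Myl4 (33.3 ± 7.46), Myh6 (30.0 ± 7.02), Myh7 (27.6 ± 3.67) and Tnni1 (20.5 ± 6.49). Myl2 (11.53 ± 3.32) stood above Myl3 (8.11 ± 1.87), and Ryr2 (1.24 ± 0.364) was again lowest. The ranges of neighbours were apart between Tnnt2 and Myl4 and between Myl3 and Ryr2. The level of Myl3 was above that of Myl2 in each of the 3 WT embryos and below it in each of the 3 Dnmt3b-/- embryos, and Myl7 was above Actc1 in each WT embryo and below it in each Dnmt3b-/- embryo. These 2 pairs were chosen after their values were seen. Their order rests on the exon lengths used for FPKM, 2583 bases for Myl2 against 909 for Myl3 and 1461 for Actc1 against 590 for Myl7. In normalized counts Myl2 was above Myl3 in WT embryos 1 and 3 as well, and Actc1 was above Myl7 in every embryo.

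**Figure D2:**
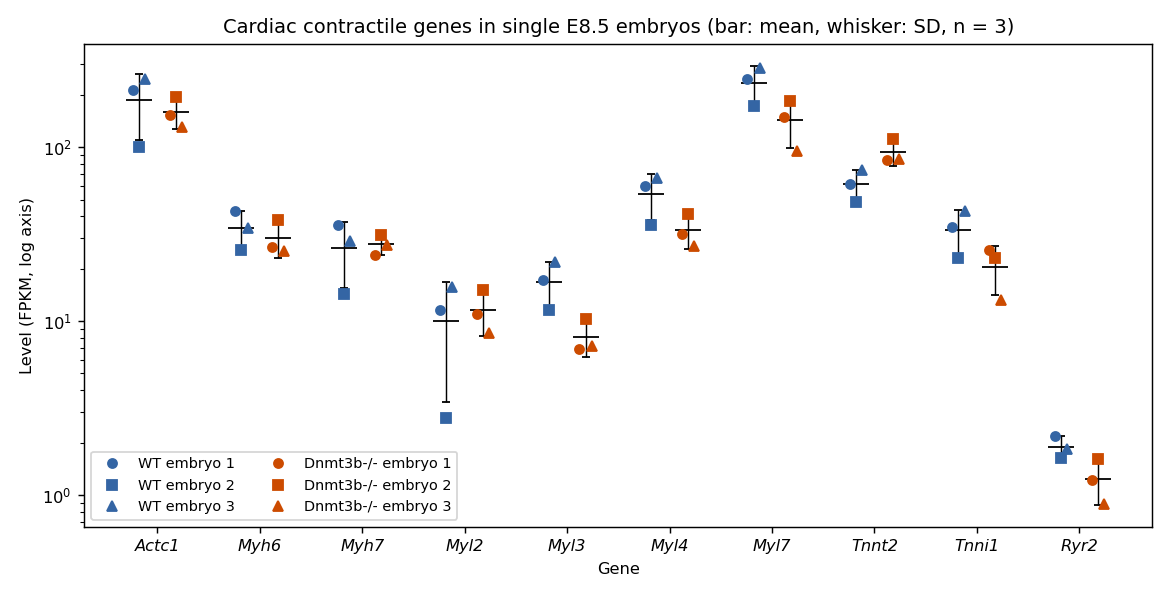
Level in FPKM on a log axis (vertical) of each contractile gene (horizontal) in 3 WT (blue) and 3 Dnmt3b-/- embryos (orange), with the mean as a bar and the SD as whiskers (n = 3). Equal symbols mark equal embryo numbers, which do not pair the embryos. The blue squares, WT embryo 2, are the lowest WT point for all 10 genes, and the genotypes separate for Tnnt2, Myl3 and Ryr2.

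Together the 10 genes took a small share of each library, and this share overlapped between the genotypes. It was 0.126%, 0.0676% and 0.127% of all gene counts in WT embryos 1, 2 and 3 and 0.0858%, 0.108% and 0.0728% in Dnmt3b-/- embryos 1, 2 and 3. WT embryo 2 had the lowest share of all 6 embryos. Embryos were mostly high or low for all 10 genes together: Dnmt3b-/- embryo 2 was the highest of its genotype for 9 genes, with Tnni1 as the exception, and Dnmt3b-/- embryo 3 the lowest for 7 genes. The spread between embryos, taken as the ratio of the highest to the lowest, was wider in WT than in Dnmt3b-/- embryos for 7 genes.

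Ratios of 2 genes within an embryo do not depend on the scaling of the library and divide out a shared rise or fall of heart transcripts. With 3 embryos of each genotype the exact two-sided permutation test cannot go below p = 0.1, so no ratio could pass a threshold of 0.05. Of 14 ratios 11 did not overlap between the genotypes and reached this smallest p of the exact permutation test (adjusted p = 0.127 over the 14). Ratios of other gene pairs were not computed, so this count and those below have no background to be judged against. Of single tested genes 25.3% were higher and 26.5% were lower without overlap, and Tnnt2 is one of the former. The ratios to Tnnt2 share their denominator and are not independent of each other, and since Tnnt2 itself rose 1.54-fold they are lower for any gene that did not rise as much. They describe the balance between genes and do not show a fall of the other gene.

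Relative to Tnnt2, the mean of each of the other 9 genes was lower in Dnmt3b-/- embryos, and for 7 of them without overlap. Myl3 changed most. Its ratio to Tnnt2 was 0.279, 0.239 and 0.296 in WT embryos and 0.0814, 0.0915 and 0.0840 in Dnmt3b-/- embryos, a 3.16-fold lower geometric mean. WT embryo 2 no longer stood far from the other WT embryos on this scale. The ratio of Myl7 to Tnnt2 was 4.05, 3.57 and 3.88 in WT embryos and 1.76, 1.64 and 1.12 in Dnmt3b-/- embryos, 2.59-fold lower. The ratio of Tnni1 to Tnnt2 was 0.565, 0.478 and 0.584 in WT embryos and 0.301, 0.204 and 0.155 in Dnmt3b-/- embryos, 2.55-fold lower. In both cases the values of the WT embryos lay close together, and all Dnmt3b-/- embryos lay below them. The geometric mean ratio to Tnnt2 was lower by 2.46-fold for Myl4, 2.41-fold for Ryr2, 1.76-fold for Myh6 and 1.71-fold for Actc1, each without overlap. The normalized counts of Myh6 and Actc1 themselves were 1.14-fold and 1.17-fold lower and overlapped between the genotypes. The ratios of Myh7 (1.38-fold lower, exact permutation p = 0.2) and Myl2 (1.10-fold lower, exact permutation p = 1.0) overlapped between the genotypes.

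Between isoforms, the cardiac form of troponin I was nearer to the slow skeletal form in Dnmt3b-/- embryos. The Tnni3 to Tnni1 ratio was 0.267, 0.129 and 0.268 in WT embryos and 0.428, 0.599 and 0.577 in Dnmt3b-/- embryos, a 2.52-fold higher geometric mean. Tnni1 was the more abundant form in all 6 embryos. The ratio of the ventricular Myl2 to the atrial Myl7 was 0.0469, 0.0160 and 0.0550 in WT embryos and 0.0741, 0.0822 and 0.0887 in Dnmt3b-/- embryos, 2.36-fold higher. Neither ratio overlapped between the genotypes. WT embryo 2 had the lowest value for both, and the SD of the log2 ratios in WT embryos was 0.61 for Tnni3 to Tnni1 and 0.97 for Myl2 to Myl7. The fold sizes above therefore rest in part on this embryo and are smaller without it, while the separation from WT embryos 1 and 3 does not depend on it. The ratio of Myl3 to Myl4 was 0.288, 0.323 and 0.331 in WT embryos and 0.218, 0.247 and 0.267 in Dnmt3b-/- embryos, 1.29-fold lower without overlap.

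The ratio of the heavy chains Myh7 to Myh6 was 0.821, 0.560 and 0.848 in WT embryos and 0.897, 0.824 and 1.09 in Dnmt3b-/- embryos. These values overlapped (1.27-fold higher, exact permutation p = 0.2). The ratio of the release channel Ryr2 to Atp2a2, the calcium pump of the sarcoplasmic reticulum, was 0.0261, 0.0207 and 0.0233 in WT embryos and 0.0143, 0.0180 and 0.0108 in Dnmt3b-/- embryos, 1.66-fold lower without overlap. Atp2a2 is used by many cell types besides the heart.

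**Figure D3:**
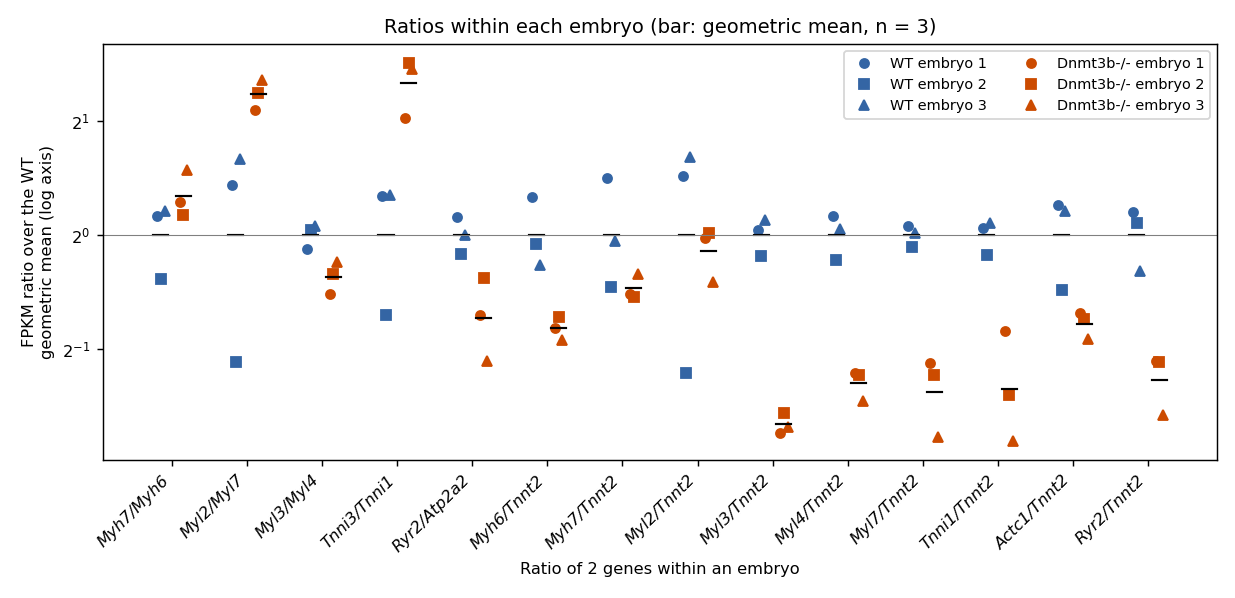
Ratio of the FPKM of 2 genes within each embryo, divided by the geometric mean ratio of the WT embryos (vertical, log axis), for the 14 ratios (horizontal), with the geometric mean of each genotype as a bar (n = 3). For Myl3, Myl4, Myl7 and Tnni1 over Tnnt2 all 3 Dnmt3b-/- embryos (orange) lie below all 3 WT embryos (blue), and for Tnni3 over Tnni1 and Myl2 over Myl7 they lie above.

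Of 26 other genes of the sarcomere 24 were tested, and 3 rose (Tpm1, Nexn and Smyd1) while none fell at an adjusted p below 0.05. Of all tested genes 17.6% rose and 18.1% fell by this rule. None was called with a fold change above 2, and the median log2 fold change was -0.10. WT embryo 2 was the lowest WT embryo for each of the 24 tested genes. Leaving it out therefore raises each WT mean, and the direction of the shift was again fixed beforehand. Without it 8 of the 24 fell and 2 rose, 1 was called lower with the fold threshold, and the median was -0.31. These counts are no independent support for a fall. In that fit 17.6% of all tested genes fell and 17.0% rose. With all 6 embryos and an unadjusted p below 0.05, 5 were higher and 3 were lower, against 3324 and 3591 of all 15114 tested genes. Tpm1, the alpha-tropomyosin to which troponin T binds, was the most abundant and rose from a mean of 24600 to 29870 normalized counts (log2 fold change 0.28, SE 0.09, adjusted p = 0.0444). Nexn, encoding the Z-disc protein nexilin, had 906, 850 and 917 normalized counts in WT and 1079, 1634 and 1811 in Dnmt3b-/- embryos (log2 fold change 0.76, adjusted p = 0.0127). Smyd1, a muscle methyltransferase needed for sarcomere assembly, had 1479, 942 and 1358 in WT and 1651, 2311 and 2203 in Dnmt3b-/- embryos (0.70, adjusted p = 0.0206). Neither gene overlapped between the genotypes. With the correction for GC content and length Nexn was at 0.26 (adjusted p = 0.233) and Tpm1 at 0.20 (adjusted p = 0.127), while without Dnmt3b-/- embryo 2 the adjusted p was 0.0548 for Nexn, 0.0824 for Smyd1 and 0.174 for Tpm1. Smyd1 also missed the threshold without Dnmt3b-/- embryo 3 (adjusted p = 0.0649), and Tpm1 passed it in 2 of 6 fits that left out an embryo. Nexn and Smyd1 are named because they passed the test, after their values were seen. Of the other abundant genes, smooth muscle actin Acta2 had a log2 fold change of -0.22 (adjusted p = 0.425), the stretch-responsive Ankrd1 of 0.59 (adjusted p = 0.0980) and the calcium-binding troponin subunit Tnnc1 of -0.12 (adjusted p = 0.664). The log2 fold change of Tnnc1 was 0.06 with the correction for GC content and length.

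Of 19 other genes of calcium handling and excitation 18 were tested, and 1 rose and 3 fell, against 17.6% and 18.1% of all tested genes. With the fold threshold these were 1 higher and 1 lower, against 2.12% and 3.78%, and the median log2 fold change was -0.06. WT embryo 2 was the lowest WT embryo for every tested gene of this list but the calcium channel gene Cacna1d. The direction of the shift without it was thus largely fixed beforehand here too. Without WT embryo 2 none rose and 5 fell, 2 of them by more than 2-fold, and the median was -0.27. In that fit 17.0% of all tested genes rose and 17.6% fell. Hrc, a calcium-binding protein of the sarcoplasmic reticulum, had 152, 91.6 and 196 normalized counts in WT and 225, 392 and 289 in Dnmt3b-/- embryos (log2 fold change 1.04, SE 0.32, adjusted p = 0.0340). Every Dnmt3b-/- embryo was above every WT embryo. Hrc missed the threshold without WT embryo 2 (adjusted p = 0.0507), and it passed the test in 2 of 6 fits that left out an embryo. The potassium channel Kcnh2 (-0.87, adjusted p = 0.0273) and Popdc2 (-0.57, adjusted p = 0.0193), a membrane protein of heart and muscle, fell, and each passed the test in 2 of 6 fits that left out an embryo. With the correction for GC content and length neither did (adjusted p = 0.447 for Kcnh2 and 0.0655 for Popdc2). The log2 fold changes of Atp2a2 (0.09), the gap junction gene Gjc1 (0.14) and the sodium-calcium exchanger Slc8a1 (0.34) did not pass the test.

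Among 10 heart regulators and natriuretic peptides 3 rose and 1 fell, none with a fold change above 2, and the median log2 fold change was -0.09. The shares of all tested genes were 17.6% and 18.1%. When WT embryo 2 was left out, 4 rose and 2 fell, 1 of these by more than 2-fold, and the median was -0.07. The shares of all tested genes were then 17.0% and 17.6%. The transcription factor Mef2c had 2418, 2332 and 2380 normalized counts in WT and 3224, 3772 and 3333 in Dnmt3b-/- embryos (log2 fold change 0.53, adjusted p = 0.00200). Hand2, needed for the right ventricle, had 1260, 1160 and 1007 in WT and 1720, 1688 and 2043 in Dnmt3b-/- embryos (0.67, adjusted p = 0.00428). Srf, whose product binds the CArG box, rose from a mean of 3641 to 4389 (0.27, adjusted p = 0.0259). The cardiac homeobox gene Nkx2-5 fell, with 326, 344 and 288 in WT and 149, 209 and 197 in Dnmt3b-/- embryos (-0.79, adjusted p = 0.0149). WT embryo 2 lay close to the other WT embryos for these 4 genes. The log2 fold change of Nkx2-5 was -0.06 with the correction for GC content and length (adjusted p = 0.852), and that of Mef2c was 0.14 (adjusted p = 0.251). Without WT embryo 1 the adjusted p of Nkx2-5 was 0.0577, and Srf passed the test in 2 of 6 fits that left out an embryo, whereas Hand2 passed it in all 15 alternative fits. Gata4 had a log2 fold change of -0.73 (adjusted p = 0.102), and the natriuretic peptide Nppa, a marker of the working chamber muscle, had 177, 9.16 and 508 normalized counts in WT and 242, 136 and 167 in Dnmt3b-/- embryos (adjusted p = 0.792).

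The non-muscle counterparts of the contractile genes, which nearly all cells use, were all tested. Of 11 genes 3 rose and 4 fell, none with a fold change above 2, and the median log2 fold change was -0.01. The shares of all tested genes were 17.6% and 18.1%. When WT embryo 2 was left out, 2 rose and 4 fell and the median was 0.02, beside shares of 17.0% and 17.6%. The most abundant were the cytoplasmic actins Actb (0.03, adjusted p = 0.755) and Actg1 (-0.39, adjusted p = 0.00610), the tropomyosin Tpm4 (0.21, adjusted p = 0.0424) and the light chain Myl6 (-0.45, adjusted p = 0.00608), given as log2 fold changes. The increase of Tpm4 became -0.09 with the correction for GC content and length, and the log2 fold change of Actb became -0.05 under scaling by total counts. The other genes that passed the test were Myl12b and Tpm3, which rose, and Myh9 and Actn4, which fell, all named after their values were seen. With the correction the adjusted p was 0.601 for Myh9 and 0.974 for Actn4.

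Markers of other cells were examined for the embryo as a whole. The 12 skeletal muscle genes summed to between 7.21 and 10.49 FPKM in WT and between 10.42 and 12.02 in Dnmt3b-/- embryos, against 422 to 819 per embryo for the 10 contractile genes. The myogenic factors Myod1 and Myog and the muscle creatine kinase Ckm stayed at or under 0.129, 0.239 and 0.0519 FPKM, while the fast muscle genes Tnnt3, Mylpf and Tnni2 reached 5.98, 2.36 and 1.97 FPKM. Myod1, Myog and Ckm did not reach the count filter and were not tested. Myog had raw counts of 3, 0 and 2 in WT and 17, 13 and 8 in Dnmt3b-/- embryos, while Myod1 and Ckm overlapped between the genotypes. Of the 8 skeletal genes tested 1 rose, the embryonic heavy chain Myh3, from a mean of 12.4 to 43.2 normalized counts (3.52-fold, log2 fold change 1.82, adjusted p = 0.0411). Myh3 had raw counts of only 6 to 53 per embryo. No skeletal gene rose by the adjusted p under the replicate block, without WT embryo 1 or without any 1 of the Dnmt3b-/- embryos. Myh3 and the fast muscle genes are named after their values were seen. The trophoblast genes Prl3d1, Prl2c2, Tpbpa and Prl8a2 had 0 counts in all embryos. The summed FPKM of 5 erythroid markers ranged from 396 to 2243 in WT and from 502 to 1437 in Dnmt3b-/- embryos, and that of 5 yolk sac endoderm markers from 146 to 934 and from 93.5 to 348. Of the tested markers none of the 5 erythroid and none of the 5 yolk sac genes passed the main edgeR test between genotypes (Apob alone had an unadjusted p below 0.05, and DESeq2 called it lower with an adjusted p of 0.0478). In edgeR 1 yolk sac gene was lower by the adjusted p with no filter, with a mean of 50 counts and without WT embryo 3. The same number was lower under the replicate block, with or without the correction for GC content and length. None was lower without WT embryo 2. In the fit without WT embryo 2 the embryonic globin Hbb-bh1 was lower (log2 fold change -1.23, adjusted p = 0.0307). The 4 smooth muscle markers summed to between 27.0 and 44.4 FPKM in WT and between 19.3 and 27.5 in Dnmt3b-/- embryos, with 2 of 4 lower at an adjusted p below 0.05. That number was 0 with the correction for GC content and length, and 0 or 1 whenever an embryo was left out. The 6 endothelial and endocardial markers summed to between 45.9 and 51.1 and between 33.3 and 51.6, with 1 of 6 lower. By the same rule 17.6% of all tested genes were higher and 18.1% were lower. The 5 neural tube markers summed to between 63.5 and 85.6 and between 73.1 and 85.4. Of these Pax6 (adjusted p = 0.0288) and Sox1 (adjusted p = 0.0247) rose and Sox2 (adjusted p = 0.00496) fell. Neither Pax6 nor Sox1 passed the test without Dnmt3b-/- embryo 2 or without Dnmt3b-/- embryo 3. The 5 somite markers summed to between 30.0 and 39.2 in WT and between 40.8 and 51.1 in Dnmt3b-/- embryos, without overlap, and 1 of them, Tcf15, rose 2.20-fold (adjusted p = 0.00601). The part of these cells in the contractile gene levels was not tested.

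**Figure D4:**
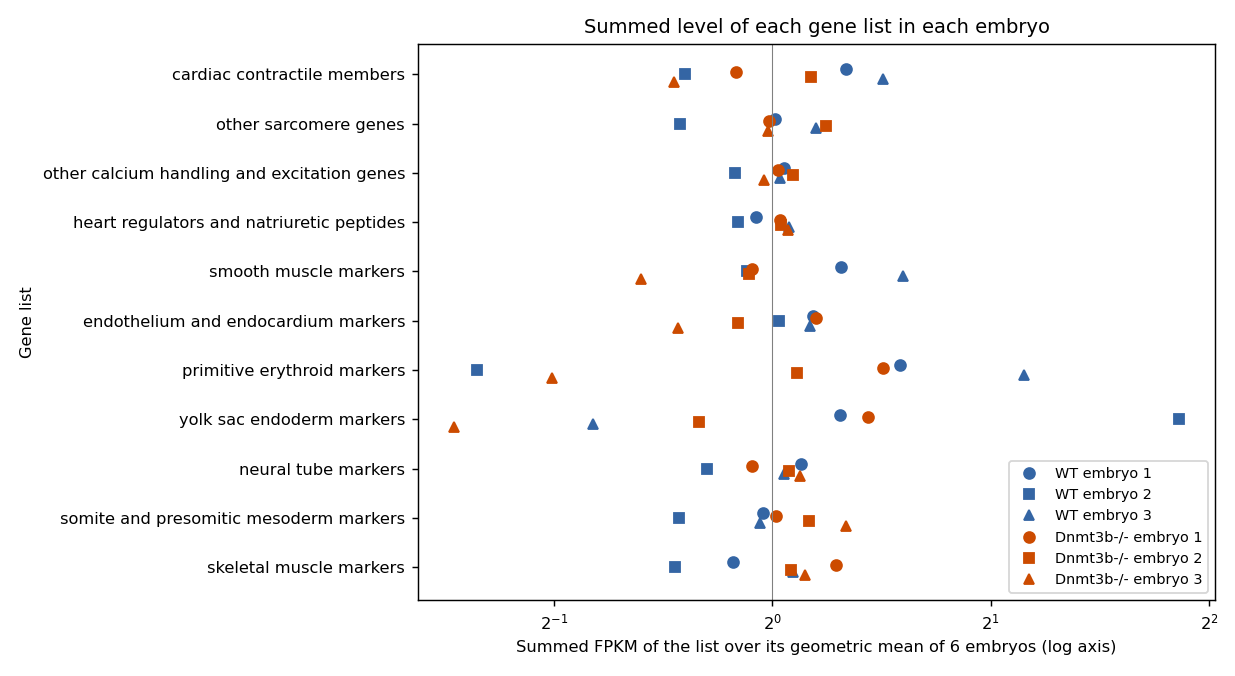
Summed FPKM of each gene list divided by its geometric mean over the 6 embryos (horizontal, log axis) for the gene lists (vertical), in WT (blue) and Dnmt3b-/- embryos (orange). WT embryo 2 (blue squares) lies far to the left for erythroid markers, far to the right for yolk sac endoderm markers and left of the other WT embryos for the contractile genes.

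The genes whose levels followed the 10 contractile genes most closely were found by Pearson correlation over the 6 embryos with the mean of their centred log2 levels. Among 11860 other genes whose mean reached 100 counts the highest coefficients were those of Mgat5 (0.99), Adcy1 (0.98), Erbb4 (0.98), Vegfc (0.98) and Fam72a (0.98), and 19 genes exceeded 0.95. Xist, a transcript of female cells named here after its value was seen, came next at 0.947. The sex of the embryos is not given in the labels, and its part in the contractile gene levels was not tested. All points share the same 6 libraries, and many genes reach high coefficients over so few embryos, so these values are a description only.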

How the data were processed

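RNA-Seq was analysed in 3 WT and 3 Dnmt3b-/- E8.5 embryos, and the methylation libraries of the series were not analysed here. Per the submitters' processing notes and the methods, reads were aligned to mm10 with TopHat2 2.0.12 and assigned to RefSeq exons with HTSeq 0.6.0, and the authors deposited the raw counts as such. Their table also holds, as deposited, a normalized signal (raw counts divided by DESeq2 1.4.5 size factors), log2 fold changes and adjusted p-values of their own comparison, which were not used here. The strand setting of the counting is not given in the sources used here, and 0 value columns of the table were left without a sample.

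Genes whose mean reached 10 counts entered the edgeR 4.0.16 quasi-likelihood test (R 4.3.3, TMM scaling, genotype as the only term) with p-values adjusted over all 15114 tested genes by the Benjamini-Hochberg method. A call needed an adjusted p under 0.05 together with a change of more than 2-fold. SEs were derived from the F statistic of each gene. FPKM values used the merged exon length of RefSeq GRCm38.p6, in which 99.2% of the genes were matched, and promoter windows were taken from RefSeq of the same assembly. Ratios and tables were computed with Python (scipy, exact permutation tests). In simulated data, 15024 genes with 100 changed at each size, 89% of the genes with a log2 change of 1 and 100% of those with a log2 change of 2 were recovered, with 12 false calls.

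The alternatives were other scalings (DESeq2 size factors, total counts), no filter or a mean of 50 counts, DESeq2 1.42.0, limma-voom (limma 3.58.1), a replicate block, a correction for exonic GC content and log2 length (natural splines with 5 degrees of freedom, given to edgeR as offsets), and each embryo left out in turn. The genes named are all 10 contractile genes, Dnmt3b, the 4 most abundant genes of each other list and those called, the genes most like the 10, and genes singled out after their values were seen where stated. Protein sequences were not used here. The gene of the calcium list called lower is not reported here. The contractile genes and the other gene lists were chosen with earlier results of these data known. Since the embryos are separate littermates, the p-values measure the spread between embryos, and intervals of counting error alone are not given.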

Additional observations from a re-analysis of the deposited data

How the results depend on the processing

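Among the 15 alternative fits the direction of Tnnt2, Myl3, Myl4, Myl7, Tnni1 and Ryr2 was kept in each, and Myl3 passed the test in 12, Tnnt2 in 13, Ryr2 in 7, Myl7 and Myl4 in 6 and Tnni1 in 2. The number of contractile genes called lower with the fold threshold was 0 with the GC and length correction, and 0 with the correction and the replicate block together. It ranged from 0 to 1 when an embryo was left out, and it was 0 without WT embryo 3 and without Dnmt3b-/- embryos 1 or 3. With the adjusted p alone 1 was higher and 2 were lower. The number lower by the adjusted p alone was 4 under scaling by total counts, no filter, a mean of 50 counts and DESeq2, 1 under DESeq2 size factors, 0 with the GC and length correction and 0 with the correction and the block. In the first 4 of these fits 3200 of 15114, 2744 of 19375, 2774 of 12909 and 3013 of 15114 tested genes were lower. When an embryo was left out it ranged from 0 (without Dnmt3b-/- embryo 3) to 6 (without WT embryo 2), and the number higher ranged from 0 (without WT embryo 1 or Dnmt3b-/- embryo 2) to 1.

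Embryos with the same replicate number did not deviate together (correlations of -0.05, -0.15 and -0.01 for numbers 1, 2 and 3), so the numbers were not taken as a pairing. Under the replicate block 1 contractile gene rose and 1 fell by the adjusted p, 0 and 1 were called with the fold threshold, and over all tested genes 265 were called higher and 516 lower. The block left 0 calcium genes called in either direction, and the block with the correction left 0 called in either direction, 1 regulator called higher (Hand2) and, over all tested genes, 212 higher and 147 lower.

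Over all tested genes 320 were called higher and 571 lower, against 246 and 710 under scaling by total counts and 265 and 187 with the GC and length correction. With the adjusted p alone they were 2654 and 2741. The GC and length correction left 0 calcium genes called lower and 1 regulator called higher. Of the calcium genes 0 were called higher under scaling by total counts and 2 under DESeq2 and limma-voom. When an embryo was left out, 0 to 1 calcium genes were called higher, 0 to 2 calcium genes lower, 0 to 1 sarcomere genes lower and 0 to 1 regulators lower. With the adjusted p alone 3 sarcomere genes, 3 regulators and 3 non-muscle genes were higher, and 3 calcium genes, 1 regulator and 4 non-muscle genes were lower. The causes of these shifts were not tested.

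Changes of sign were seen only for genes and ratios that did not pass the test, apart from Tpm4 and Actn4. The log2 fold change of Myh6 was 0.20 with the GC and length correction, 0.19 with the block added and -0.40 to 0.00387 over the fits that left out an embryo. That of Myh7 was -0.0137 under scaling by total counts, 0.52 with the correction and the block together and -0.23 to 0.35 with an embryo left out. The corresponding ranges were -0.25 to 0.67 for Myl2, -0.53 to 0.0200 for Actc1 and -0.32 to 0.0313 for Tnnc1. With the GC and length correction, Tpm4 was at -0.0914, Actn4 at 0.00330, Atp2a2 at -0.0171 and Tnnc1 at 0.0588, and with the block added they were at -0.0889, 0.00421, -0.0188 and 0.0596. Actb was at -0.0455 under scaling by total counts. The log2 difference of the Myl2 to Tnnt2 ratio, -0.14, ranged from -0.74 to 0.21 with an embryo left out, and the other 13 ratios kept their sign with a pseudocount of 0.1, without length scaling and with each embryo left out. Myl2 was the least precisely measured of the 10 genes (SE 0.51 on the log2 scale).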
